A study of Mus musculus with 35 samples.

Results

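The 10 genes described here are classical markers of the melanocyte, the pigment cell of skin: Tyr, Tyrp1, Dct, Pmel, Mlana, Mitf, Sox10, Kit, Ednrb and Mc1r. They were taken by name from the gene tables of 35 sorted-cell RNA-seq libraries, 10 of 53715 genes listed for back skin and 10 of 49585 listed for tail skin, palate and tongue (55864 names in all). The sorts were made from mouse epithelium, and the study compared epidermal cells that divide slowly with cells that divide fast. All mice were of strain C57BL/6J and genotype K5-tTA/pTRE H2B-GFP, were 2 months old and received doxycycline in the chow, for 2 weeks where skin was taken and for 10 days where oral tissue was taken. In this model the keratin 5 promoter, that of basal epithelial cells, drives a fluorescent histone until doxycycline stops it, so that cells that divide rarely retain the label (LRC) and cells that divide often lose it (nLRC). The 13 groups were tongue basal layer LRC and nLRC, palate basal layer LRC and nLRC (2 libraries each), tail skin bulge, tail basal layer LRC and nLRC, and back skin bulge, granular layer, spinous layer LRC and nLRC and basal layer LRC and nLRC (3 libraries each). The bulge is the hair follicle niche of stem cells. No group was sorted as melanocytes. Whether a group's replicates came from different mice is not in the labels, so the p-values below measure the spread between libraries, which may be technical.

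Melanocytes arise from the neural crest, populate the hair follicle and the basal epidermis, and pass pigment granules, the melanosomes, to keratinocytes. SOX10 and PAX3 switch on Mitf, whose product in turn switches on the genes of pigment synthesis by binding a short promoter element, the M-box. Signals from neighbouring epithelium reach the lineage through KIT, the receptor of KIT ligand, EDNRB, the endothelin B receptor, and MC1R, the receptor of melanocortins. In furred mouse skin, melanocytes and their stem cells sit mostly in hair follicles, with resident epidermal melanocytes in tail and other sparsely haired skin.

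Promoter windows of 250 bases before to 50 bases after the start were matched in RefSeq (GRCm38.p6) for 7 of the 10 genes, and those of the 3 pigment enzymes are printed because these genes move together below. The M-box core CATGTG, searched on both strands and thus also as CACATG, is in capitals. Tyr, on chr7:87493463-87493762, minus strand, holds it 21 bases before the start, Tyrp1, on chr4:80833963-80834262, plus strand, 46 bases before, and Dct, on chr14:118052197-118052496, minus strand, 150 and 232 bases before. The fourth window belongs to Mitf, on chr6:97991533-97991832, plus strand, the third of its 3 RefSeq windows, with the cyclic AMP response element TGACGTCA in capitals 153 bases before the start.
Tyr: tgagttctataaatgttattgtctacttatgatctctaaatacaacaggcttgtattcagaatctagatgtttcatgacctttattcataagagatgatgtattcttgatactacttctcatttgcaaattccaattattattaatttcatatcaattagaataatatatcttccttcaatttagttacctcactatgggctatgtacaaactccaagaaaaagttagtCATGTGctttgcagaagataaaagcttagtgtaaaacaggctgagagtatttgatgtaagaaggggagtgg
Tyrp1: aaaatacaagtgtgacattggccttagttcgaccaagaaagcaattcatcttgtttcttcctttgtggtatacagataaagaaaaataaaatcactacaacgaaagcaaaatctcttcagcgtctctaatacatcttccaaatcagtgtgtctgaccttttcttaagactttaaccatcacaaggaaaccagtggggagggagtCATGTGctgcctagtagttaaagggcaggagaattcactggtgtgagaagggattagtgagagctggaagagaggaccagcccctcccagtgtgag
Dct: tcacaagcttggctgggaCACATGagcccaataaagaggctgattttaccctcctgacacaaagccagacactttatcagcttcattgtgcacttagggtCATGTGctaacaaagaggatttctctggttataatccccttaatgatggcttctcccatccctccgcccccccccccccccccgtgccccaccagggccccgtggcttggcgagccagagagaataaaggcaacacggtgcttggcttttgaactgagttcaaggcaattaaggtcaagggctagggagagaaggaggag
Mitf: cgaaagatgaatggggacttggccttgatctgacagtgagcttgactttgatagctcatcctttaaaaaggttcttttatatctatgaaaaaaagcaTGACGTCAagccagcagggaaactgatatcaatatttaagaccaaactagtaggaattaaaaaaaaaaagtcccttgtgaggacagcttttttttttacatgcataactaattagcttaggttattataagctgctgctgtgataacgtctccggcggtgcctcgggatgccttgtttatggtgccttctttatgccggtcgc
The M-box core was found in 4 of the 10 windows of these genes, Mc1r being the other gene with it, against 14.2% of all 32851 mouse windows of this length, and TGACGTCA was found in 1.79% of all windows. CACGTG, an overlapping class of E-box, was found in 7.15% of all windows. A match describes the letters only and says nothing of binding in these sorts.

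In mm10, the build named in the submitters' processing notes, the annotation places Tyr on chromosome 7 at 87424771 to 87493512, Tyrp1 on chromosome 4 at 80834123 to 80851719, Dct on chromosome 14 at 118012790 to 118052244, Pmel on chromosome 10 at 128704195 to 128720238 and Mlana on chromosome 19 at 29697824 to 29708634. Mitf lies on chromosome 6 at 97807052 to 98021349, with 7 annotated transcript starts, Sox10 on chromosome 15 at 79154908 to 79165240, Kit on chromosome 5 at 75574916 to 75656722, Ednrb on chromosome 14 at 103814625 to 103844402 and Mc1r on chromosome 8 at 123407107 to 123410744. Some of these loci share bases with others: Pmel with Cdk2 over 837 bases and with Dgka over 105, both on the opposite strand, Dct with the antisense gene 4930435M08Rik over 1891, and Mc1r lies wholly within Gm20388 on the same strand. The sources used here do not give the use of strand in counting, and reads of such pairs cannot be told apart, and values of Mc1r are uncertain.

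Total gene reads per library ran from 9785944 to 20560481 in back skin and from 8421582 to 15641556 in the other tissues. Kit, Mitf and Pmel had reads in all 35 libraries, whereas Mc1r had 0 reads in 19, Tyr in 16, Mlana in 11, Tyrp1 and Sox10 in 8 each, Ednrb in 6 and Dct in 3. The deposited TPM can be 0 where total gene reads are not, as for Mlana in 14 libraries, Ednrb in 8, Tyr in 7 and Kit in 4. Scaling by gene length alone would not give this. Whether total gene reads include reads outside exons, such as in introns, was not tested. These measures can also differ in order. In spinous LRC and nLRC libraries Pmel had 326 and 268 reads, but averaged 2.54 and 4.61 TPM. Back bulge libraries 1 and 3 alone held 78.3% of all Tyrp1 reads of the series, 76.6% of Dct, 60.5% of Ednrb, 55.9% of Tyr, 51.7% of Sox10, 51.6% of Kit and 38.9% of Mlana, but only 29.0% of Mitf, 26.7% of Pmel and 19.3% of Mc1r reads. All 6 basal keratinocyte markers had reads in every library. In bulk libraries such as these, fewer cells of a type and less RNA per cell cannot be told apart.

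**Figure D1:**
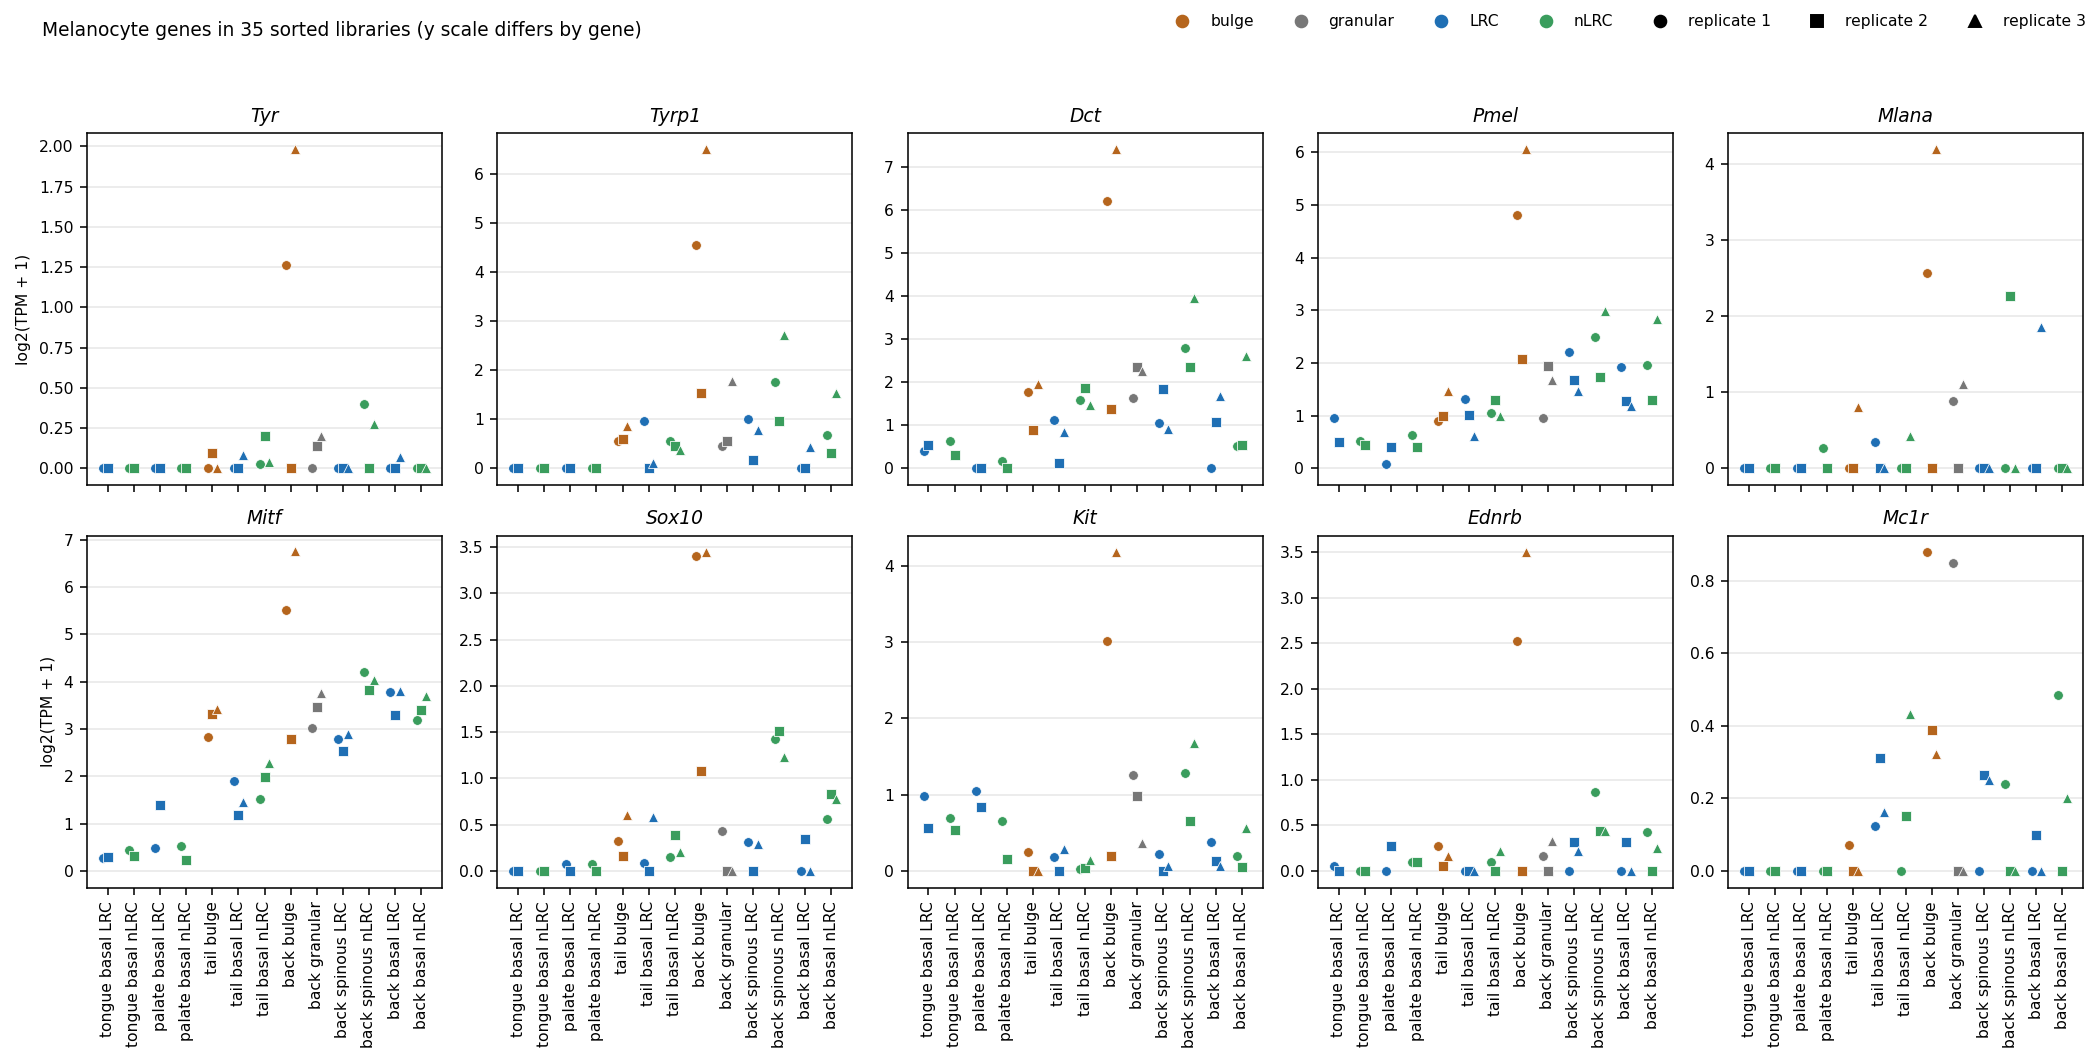
Level of each of the 10 melanocyte genes as log2(TPM + 1), vertical axis, in every library of the 13 groups, horizontal axis; circles, squares and triangles are replicates 1, 2 and 3, and colours mark the sort (brown bulge, grey granular, blue LRC, green nLRC). Back bulge 1 and 3 carry the highest values of Tyr, Tyrp1 and Dct, while Mitf is above 0 in every library.

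The back skin bulge held the highest levels of the melanocyte programme in the series, and its libraries differed widely. The enzymes of melanin synthesis Tyrp1 and Dct were the most raised, 71.9-fold and 53.1-fold higher than in the back basal layer, followed by the receptor Kit, 29.4-fold, and the enzyme Tyr, 22.9-fold higher. Tyr, the tyrosinase that catalyses the first steps of melanin synthesis, had 42, 0 and 82 reads in bulge libraries 1, 2 and 3, against 0 to 5 reads with a median of 1.5 in the 6 basal libraries. Tyrp1, the tyrosinase-related protein 1, had 201, 20 and 900 reads in the bulge, against 0 to 22 (median 5) in the basal layer. Bulge library 3 thus stood highest and library 2 lowest for both genes, with the raw reads of library 2 inside the basal range. Dct, dopachrome tautomerase, which is also made by unpigmented melanoblasts, had 753, 18 and 1802 reads in the bulge, against 0 to 58 (median 13.5) in the basal layer. The log2 fold changes by edgeR's quasi-likelihood test, with Benjamini-Hochberg adjustment, were 6.17 ± 0.73 for Tyrp1 (SE, adjusted p = 1.08e-05), 5.73 ± 0.87 for Dct (adjusted p = 1.16e-04) and 4.52 ± 1.23 for Tyr (adjusted p = 0.0134).

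Bulge library 2 needs its depth beside its raw reads. Its TMM scaling factor was 0.5, against 1.19 and 1.08 for bulge libraries 1 and 3, so its scaled values are larger than its reads alone would give. On the scaled counts-per-million (CPM) scale Dct stood at 40.1, 3.68 and 106 in the 3 bulge libraries, with a mean of 49.8 ± 51.7 (SD, n = 3), against 1.01 ± 1.18 (SD, n = 6) in the basal layer. Tyrp1 averaged 22.5 ± 26.4 CPM in the bulge and 0.407 ± 0.431 CPM in the basal layer. On this scale all 3 bulge libraries lay above every basal library for Tyrp1, Dct, Mlana, Sox10 and Kit. The groups overlapped for Tyr, Mitf, Pmel and Ednrb. For Dct and Mlana the separation rested on the scaling factor. In unscaled CPM, Dct stood at 1.84 in bulge library 2 and at 3.27 in basal nLRC 3. Mlana stood at 0.307 in bulge library 2 and at 0.40 in basal LRC 1. Tyrp1, Sox10 and Kit stayed separated in unscaled CPM.

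Among the melanosome proteins, Pmel, which forms the fibrils on which melanin is laid down, had 288, 35 and 534 reads in the bulge, against 86 to 179 (median 113.5) in the basal layer. Mlana, a melanosome membrane protein, had 19, 3 and 39 reads in the bulge and 0 to 6 (median 0.5) in the basal layer. Pmel was therefore well detected outside the bulge as well, unlike Mlana. The log2 fold changes were 1.36 ± 0.42 for Pmel (edgeR, adjusted p = 0.025) and 4.11 ± 1.16 for Mlana (adjusted p = 0.0142).

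Of the transcription factors, Mitf had 4842, 309 and 7431 reads in the bulge, against 1313 to 2006 (median 1606) in the basal layer. Its level was 45.0, 5.95 and 107 TPM in the bulge and 8.09 to 13.03 TPM in the basal layer. In reads and TPM, bulge library 2 lay below the basal range for this gene and the other bulge libraries above it. The same held for scaled values, with library 2 at 63.2 CPM and the basal libraries at 79.3 to 105 CPM. Scaled values averaged 252 ± 186 CPM in the bulge and 92.2 ± 10.9 CPM in the basal layer, a log2 fold change of 1.46 ± 0.36 (edgeR, adjusted p = 0.00654). Sox10, the neural crest factor upstream of Mitf, had 88, 17 and 100 reads in the bulge and 0 to 11 (median 6) in the basal layer, a log2 fold change of 4.24 ± 0.83 (adjusted p = 0.00107). Mitf was the only member with at least 1313 reads in each basal library; it is also made by cells other than melanocytes.

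The receptors split. Kit, the receptor tyrosine kinase that melanocytes need to survive and migrate, had 215, 13 and 477 reads in the bulge, against 1 to 18 (median 8.5) in the basal layer. Its scaled level averaged 14.02 ± 12.85 CPM in the bulge and 0.479 ± 0.312 CPM in the basal layer, with a log2 fold change of 4.88 ± 0.67 (edgeR, adjusted p = 4.74e-05). Ednrb had 67, 2 and 178 reads in the bulge and 0 to 9 (median 6.5) in the basal layer, a log2 fold change of 4.07 ± 0.84 (adjusted p = 0.00167). In bulge library 2 Ednrb was within the basal range. Mc1r had 8, 4 and 3 reads in the bulge and 0 to 5 in the basal layer, and was too low to test.

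All 9 members tested were thus called higher in the back bulge, where 15.7% of the 16574 genes tested were called higher and 26.3% were called in either direction; the median log2 fold change was 4.24 over these 9 and 0.06 over all genes tested. Tyr, Mlana and Ednrb passed the filter on low counts only through the bulge libraries, so the count is a description. Bulge library 3 carried much of the size: without it 5 members were called (Tyrp1, Dct, Kit, Sox10 and Ednrb), with log2 fold changes of 4.55 for Tyrp1, 4.55 for Dct and 3.89 for Kit, while Mitf was at 0.80 (edgeR, adjusted p = 0.108), Tyr at 3.51 (0.0773), Mlana at 3.42 (0.0691) and Pmel at 0.68 (0.284). Without bulge library 2 all 9 were called, and Tyrp1 stood at 6.64 and Dct at 6.25. Pmel lost its call also without any of basal LRC 2, LRC 3, nLRC 1 or nLRC 2, at log2 fold changes of 1.21 to 1.30. Between bulge libraries 3 and 1 the TPM ratio was 2.11 for Tyr, 2.17 for Ednrb, 2.30 for Dct, 2.38 for Mitf, 2.41 for Pmel and 2.42 for Kit, but 3.52 for Mlana, 4.00 for Tyrp1 and 1.04 for Sox10.

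**Figure D2:**
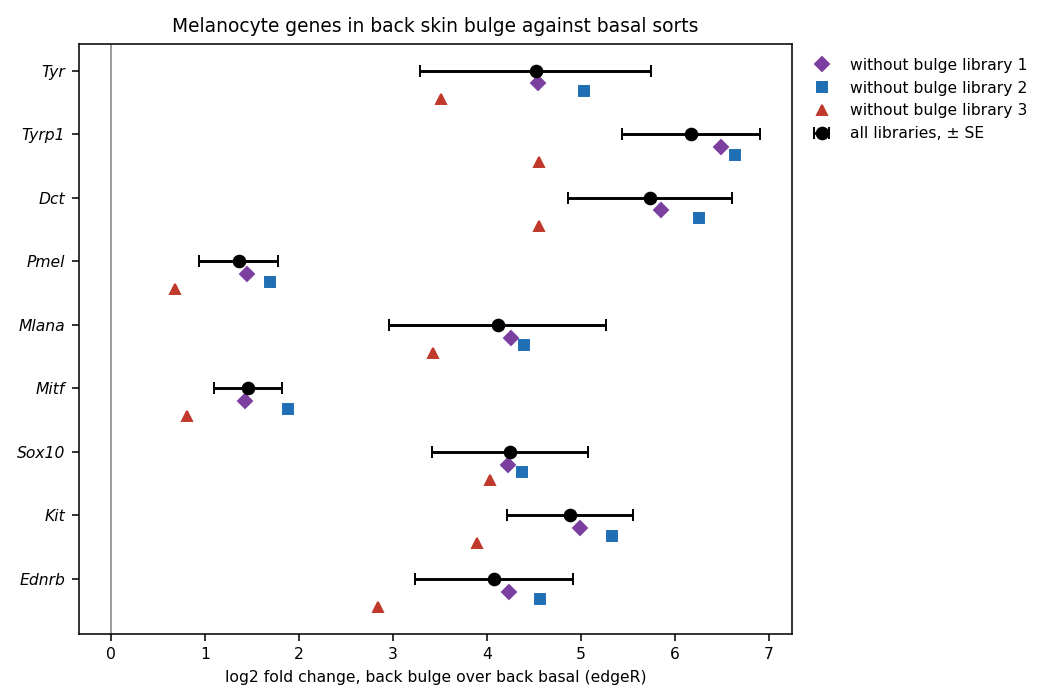
Log2 fold change, back bulge over back basal layer, of the 9 tested melanocyte genes from the edgeR fit (points with bars of 1 SE) and with bulge library 1, 2 or 3 left out. Leaving out library 3 lowers all 9 values (Tyrp1 stands at 4.55, against 6.17 with all libraries), and leaving out library 2 raises them.

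Genes that work with the members in melanocytes and melanoblasts moved in part with them. Of 15 melanoblast factors, 13 were tested, 6 were called higher in the bulge and 2 lower. Pax3, the paired-box factor that acts with SOX10, had 238, 7 and 230 reads in the bulge and 0 to 6 in the basal layer (log2 fold change 6.49 ± 0.94). Adamts20, the protease altered in belted mice, had 722, 26 and 136 reads in the bulge and 0 to 4 in the basal layer (7.69 ± 1.04). Bulge library 1 exceeded library 3 for Adamts20, the reverse of the order for Tyrp1 and Dct. The others called higher were Zeb2 (4.20 ± 0.72), Lef1 (4.51 ± 0.77), Sox5 and Kitl (4.36 ± 0.59), and those lower were Tfeb (-0.94 ± 0.21) and Erbb3. Several of these, Lef1 and Kitl among them, are also made by follicle keratinocytes or dermal cells.

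Of 27 genes of melanosome making and transport, 24 were tested, 3 were called higher and 4 lower in the bulge. Higher were Mlph, the melanophilin that links melanosomes to their motor (2.77 ± 0.65), Slc24a4 (3.05 ± 0.82) and Cd63 (1.34 ± 0.20), and lower were Rab27a, the small GTPase that binds melanophilin (-2.50 ± 0.36), Rab38 (-1.14 ± 0.16), Hps5 (-0.58 ± 0.19) and Ap3b1. Most of this list thus did not move with the pigment enzymes. A pair of pigment transporters too low to test, named after their values were seen, followed the enzymes in their reads: Slc24a5 had 20, 0 and 87 reads in the bulge and 0 or 1 in the basal layer, and Slc45a2 had 19, 0 and 26 in the bulge and 0 to 3 in the basal layer.

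Ligands of the members' receptors were read from a list of 13, of which 9 were tested, 3 were called higher in the bulge and 2 lower. Kitl, the ligand of KIT, had 670, 310 and 721 reads in the bulge and 14 to 81 (median 41) in the basal layer. All 3 bulge libraries were above the basal range in raw reads, library 2 included. The endothelins Edn1 (371, 71 and 254 reads in the bulge, 32 to 91 in the basal layer, log2 fold change 2.51 ± 0.43) and Edn2 (4.71 ± 0.82) were also called higher, while Wnt3a (-5.48 ± 0.63) and Bmp4 (-2.88 ± 0.42) were lower. Edn3, the endothelin that acts on melanoblasts, had 18 reads in 6 of the 35 libraries, and Pomc, the precursor of the melanocortins, 18 reads in 8. Asip was not analysed here.

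Markers of other cell types rose in the same bulge libraries. Of 10 endothelial markers 8 were tested and all 8 were called higher, with a summed level of 571, 30.5 and 209 CPM in bulge libraries 1, 2 and 3, against 2.87 to 3.69 CPM in basal LRC and 3.27 to 3.78 CPM in basal nLRC libraries. Of 10 fibroblast markers 7 were tested and 6 were called higher, with sums of 80.6 to 177 CPM in the bulge and 10.58 to 20.04 CPM in basal LRC libraries. Endothelial markers were highest in bulge library 1 and the pigment enzymes in library 3. Of 12 sebocyte markers 8 were called higher, and of the Merkel cell markers Krt8 and Krt18 were, with Atoh1 at 0 reads in the bulge. Of 10 mast cell markers, of cells that also make Kit and Mitf, Hdc alone was tested and was higher (253, 14 and 212 reads in the bulge), with list sums of 1.64 to 21.1 CPM in the bulge, 0.104 to 0.415 CPM in basal LRC and 0.113 to 0.668 CPM in basal nLRC libraries, but Cpa3, Tpsb2, Mcpt4 and Fcer1a had 0 reads in every bulge library. Of 5 Schwann cell markers tested, of cells that share Sox10, 2 were called lower and the others not called. The rest of that list was too low to test. The list summed to 386 to 485 CPM in basal LRC and 54.1 to 272 CPM in bulge libraries, so this count does not speak for Schwann cells. Of 9 tested markers each, Langerhans cells had 1 called higher and T cells of skin 1 called lower. Of 6 basal keratinocyte markers 3 were called lower, and of 5 salivary gland markers 1 was. The part of these cells in the members' levels was not tested. How many genes of these lists, and of the lists above, passed the filter on low counts only through the bulge libraries was not counted. The counts called higher are therefore descriptions.

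**Figure D3:**
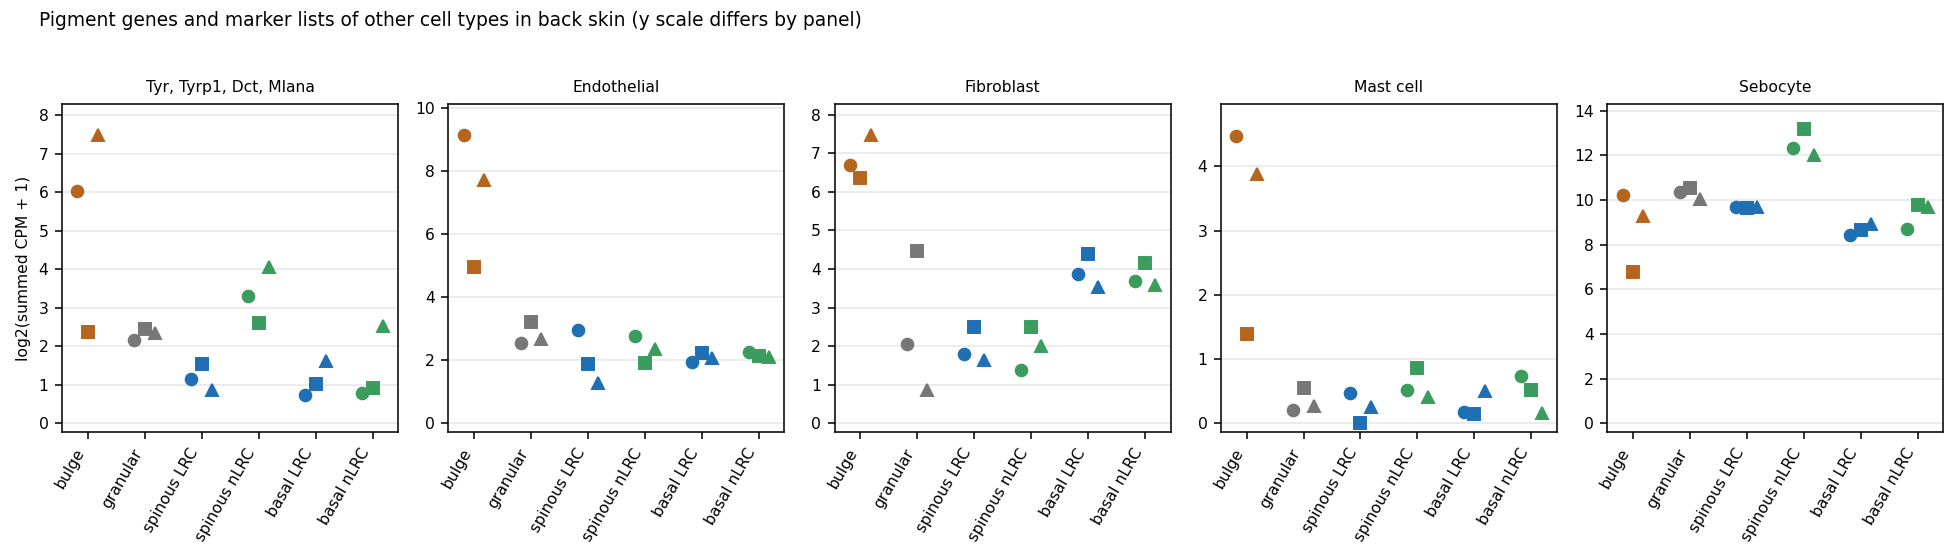
Summed level of 4 pigment genes (Tyr, Tyrp1, Dct, Mlana) and of endothelial, fibroblast, mast cell and sebocyte marker lists as log2(CPM + 1), vertical axis, in every back skin library by group; circles, squares and triangles are replicates 1, 2 and 3. Endothelial sums reach 571 CPM in bulge library 1 and stay under 4 CPM in basal libraries, while the sebocyte list is highest in spinous nLRC libraries.

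In the back spinous layer, the cells above the basal layer, Kit was lower in LRC than in nLRC libraries and was the 1 member that passed the test. Kit had 3, 1 and 1 reads in the LRC libraries 1, 2 and 3, against 42, 20 and 43 in the nLRC libraries. Scaled, that was 0.104 ± 0.0676 CPM in LRC and 2.40 ± 1.21 CPM in nLRC (SD, n = 3 each), a log2 fold change of -4.41 ± 0.99 (edgeR, adjusted p = 0.00622). The groups did not overlap, and with any library of the groups left out the value stayed between -5.04 and -4.00. On the deposited TPM scale the change was -1.11 in log2(TPM + 1) and limma's adjusted p was 0.411; this scale understates changes of low genes.

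The pigment enzymes did not pass the threshold in the main fit, which has no replicate block. With the block Tyr was called. Tyr had 0, 0 and 0 reads in LRC and 11, 4 and 23 in nLRC libraries, at least 12.98-fold lower against a floor of 3 reads over the group (edgeR, adjusted p = 0.0508). Dct had 9, 19 and 7 reads in LRC and 88, 39 and 122 in nLRC libraries (adjusted p = 0.0833). Tyrp1 had 10, 7 and 6 reads in LRC and 35, 15 and 42 in nLRC libraries (adjusted p = 0.12). For each of the 3 enzymes every LRC library was below every nLRC library, and nLRC library 2 was the lowest of its group. Mitf had 745, 945 and 1244 reads in LRC and 1733, 1991 and 1688 in nLRC libraries (62.7 ± 18.3 and 121 ± 23.8 CPM, adjusted p = 0.167). Sox10 had 6, 4 and 3 against 16, 21 and 20 reads, and Ednrb 0, 3 and 3 against 16, 13 and 5 reads, in LRC and nLRC libraries. Among the 9 tested members the groups overlapped for Mlana (0, 3 and 0 reads in LRC, 9, 17 and 2 in nLRC) and Pmel (183, 80 and 63 in LRC, 100, 61 and 107 in nLRC). Mc1r, too low to test, had 0, 2 and 2 reads in LRC and 2, 0 and 0 in nLRC libraries and overlapped too.

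Across the members, 1 of 9 tested was called lower, where 8.63% of all genes were called lower and 15.5% in either direction; 6 of the 9 had an unadjusted p under 0.05. The median log2 fold change was -2.40 over the 9 and -0.01 over all genes. With the replicate number as a block, which pairs these libraries, 2 members were called (Kit and Tyr), DESeq2 also called 2, and a fit of only these 6 libraries called 5 (Kit, Dct, Mitf, Sox10 and Tyrp1). The difference of this label effect from that of the basal layer was called for 0 of 9 members (edgeR, 3 with unadjusted p under 0.05; DESeq2 called 1), with 0.392% of all genes called; Kit stood at -4.14 ± 1.32 (adjusted p = 0.178). Without bulge library 2, which enters the shared estimate of spread, 4 members were called (Kit, Dct, Mitf and Tyr) in the spinous layer.

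Other lists changed in the same comparison. Of 12 sebocyte markers 10 were called lower in spinous LRC, with sums of 829, 798 and 823 CPM in LRC and 5082, 9224 and 4119 CPM in nLRC libraries. Within nLRC the sebocyte sum was highest in library 2, where the enzymes were lowest. Pax3 was the 1 melanoblast factor of 13 tested that was called lower (-3.95 ± 1.19, edgeR adjusted p = 0.0329). Of 24 melanosome genes tested 4 were lower, Rab32 (-3.46 ± 0.48), Slc24a4 (-4.48 ± 1.07), Lyst (-1.57 ± 0.39) and Cd63 (-1.08 ± 0.25), and 2 were higher, Rab27a (1.57 ± 0.38) and Myo5a (0.75 ± 0.17). The mast cell marker Hdc (-5.71 ± 1.55) and the Merkel cell marker Krt18 (-6.67 ± 1.99) were lower too, and the Schwann cell list held 2 genes called higher, Mbp (1.78) and L1cam (1.58). Kitl did not pass the test (-1.64 ± 0.72, edgeR adjusted p = 0.146), nor did any other of the 9 ligands tested. The part of sebocytes and other cells in these values was not tested.

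**Figure D4:**
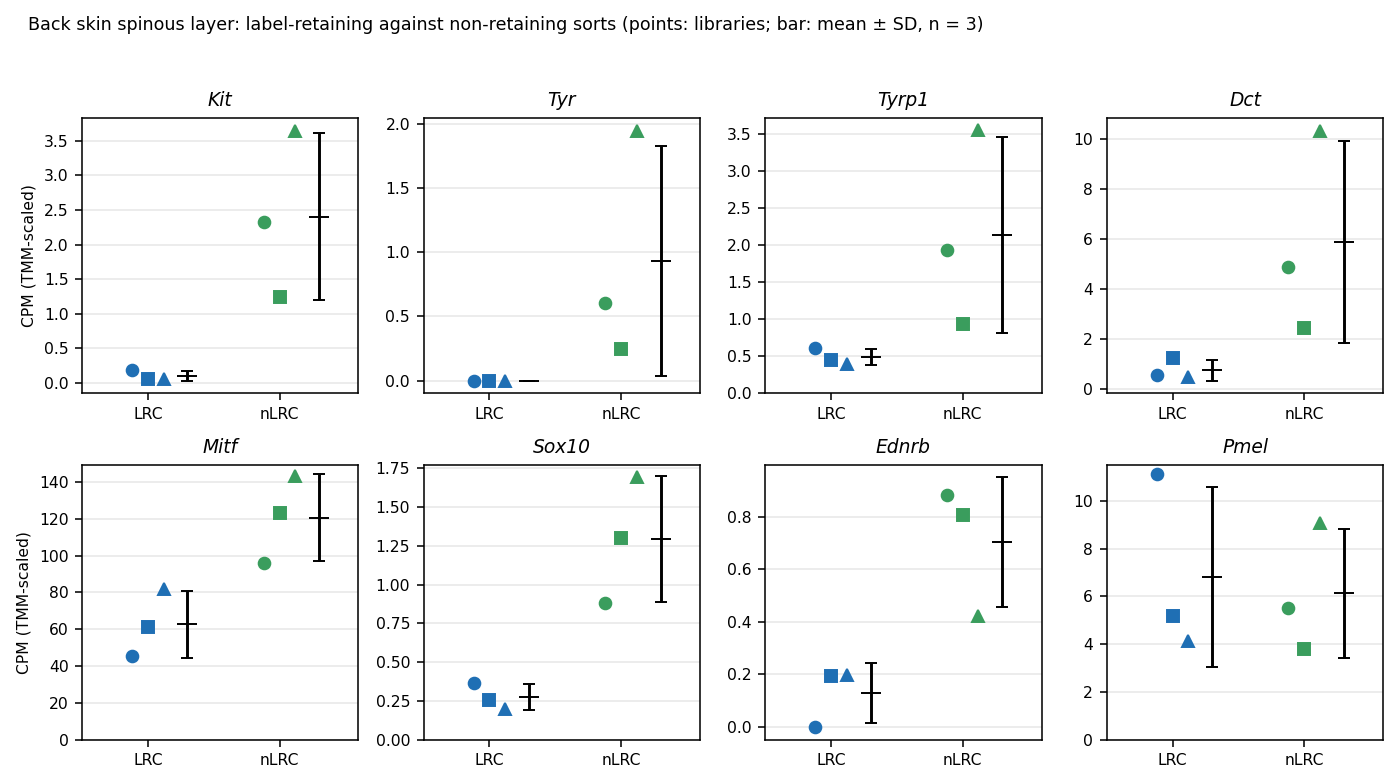
TMM-scaled CPM of 8 melanocyte genes in the 3 LRC and 3 nLRC libraries of the back spinous layer (points), with the mean and bars of 1 SD. Kit averages 0.104 CPM in LRC and 2.40 CPM in nLRC, and Pmel overlaps between the groups.

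In the back basal layer the members did not separate by label. Of 9 tested 0 were called and 0 had an unadjusted p under 0.05 (edgeR; DESeq2 and limma also called 0), with 0.235% of all genes called. Mitf lay at 11.5 ± 2.32 TPM in LRC and 9.87 ± 1.94 TPM in nLRC (SD, n = 3 each). Of the 9 members with at least 10 reads, LRC and nLRC libraries overlapped for 8, and Tyrp1 was lower in every LRC library.

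Moving up the layers of back epidermis, no member passed the main test. In spinous against basal libraries 0 of 9 were called by edgeR (1 with unadjusted p under 0.05; DESeq2 and the replicate block each called 1), where 9.07% of all genes were. In granular against basal libraries 0 of 9 were called (2 with unadjusted p under 0.05; DESeq2 called 1, and the block 2, Kit and Tyrp1), where 20% of all genes were. In the granular layer, the last living layer of the epidermis, Kit had 10 to 38 reads, against 1 to 18 in the basal layer. Dct had 31 to 42 reads in the granular and 0 to 58 in the basal layer, and Mitf 1326 to 1727 in the granular and 1313 to 2006 in the basal layer. These comparisons and that of the bulge share the same 6 basal libraries.

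Tail skin gave a different picture. In the tail bulge Mitf had 1300, 1074 and 1453 reads, against 280 to 559 (median 431.5) in the 6 tail basal libraries, with no overlap. Scaled values were 140 ± 71.4 CPM in the bulge and 31.6 ± 7.18 CPM in the basal layer, a log2 fold change of 2.14 ± 0.27 (edgeR, adjusted p = 3.05e-04). Mitf was the 1 of 3 members tested that was called, where 14.2% of all genes were called higher and 24.6% in either direction. Dct had 49, 20 and 22 reads in the bulge and 8 to 30 in the basal layer (adjusted p = 0.198), and Pmel 33, 32 and 27 in the bulge and 39 to 56 in the basal layer (adjusted p = 0.886). The remaining pigment genes were near the limit of detection: Tyr had 0, 4 and 0 reads and Tyrp1 9, 9 and 5 in the tail bulge, against 1 to 9 and 1 to 17 in the tail basal layer. The tail bulge thus carried Mitf without the reads of Tyr and Tyrp1 seen in back bulge libraries 1 and 3; a difference between the bulges of tail and back was not tested. In the same libraries 8 of 9 tested endothelial markers were called higher (summed 89.3 to 160 CPM in the bulge, 17.4 to 43.3 CPM in basal LRC and 18.4 to 30.9 CPM in basal nLRC libraries), 4 of 5 fibroblast markers, and the mast cell markers Hdc (2.95 ± 0.88) and Gata2 (5.89 ± 1.03). Which of these markers passed the filter only through the bulge was not counted, so their counts are descriptions. The part of these cells in the level of Mitf was not tested. Kitl was called higher as well, with 940, 712 and 468 reads in the tail bulge and 265 to 373 in the tail basal layer (1.55 ± 0.10).

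Between tail basal LRC and nLRC libraries 0 of 3 tested members were called and 0 had an unadjusted p under 0.05 (edgeR; DESeq2 and limma also called 0), with 4.6% of all genes called, and the groups overlapped for all 9 members with at least 10 reads. Mitf lay at 1.92 ± 0.738 TPM in LRC and 2.89 ± 0.977 TPM in nLRC. In the difference of the label effect between tail and back, 0 of 6 were called (0 with unadjusted p under 0.05; DESeq2 and limma 0), where 2.71% of all genes were.

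In the palate, the roof of the mouth, 4 members had more reads in both LRC than in both nLRC libraries. The share of all genes so separated is not given here, so this count is a description. In TPM only Kit of the 4 stayed separated (0.78 to 1.07 in LRC, 0.11 to 0.57 in nLRC). Pmel averaged lower in LRC than in nLRC libraries in TPM (0.195 and 0.44). Kit had 62 and 51 reads in LRC and 39 and 6 in nLRC, and Mitf 204 and 151 in LRC and 93 and 18 in nLRC. Ednrb had 17 and 13 reads in LRC and 9 and 3 in nLRC, and Pmel 48 and 43 in LRC and 40 and 10 in nLRC. None passed edgeR's test: adjusted p was 0.64 for Kit and Mitf, 0.656 for Pmel and 0.712 for Ednrb, with 0% of 14923 genes called, although 1082 genes, Kit and Mitf among them, had an unadjusted p under 0.05. Palate nLRC library 2 had a TMM factor of 0.666, and DESeq2 called 0 members. Limma tested 0 members, as none passed its filter at 1 TPM, so it has no outcome for them here. Leaving out palate nLRC library 1 leaves a lone nLRC sample, assumed to vary like the other groups, so calls of that fit are not read here. A salivary gland marker list, of cells that share Kit and Sox10, summed to 293 and 2.17 CPM in palate LRC and 19.4 and 0.428 CPM in palate nLRC libraries; its part was not tested.

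In the tongue Kit had 47 and 49 reads in LRC and 30 and 36 in nLRC libraries, and Mitf 64 and 19 in LRC and 39 and 39 in nLRC. By reads Kit was higher in both LRC libraries and Mitf overlapped. In TPM Kit overlapped too, at 0.47 to 0.97 in LRC and 0.45 to 0.61 in nLRC libraries. Mitf in TPM was lower in both LRC libraries (0.20 to 0.22) than in both nLRC libraries (0.25 to 0.35). Of 4 tested 0 were called by edgeR, with 0 at an unadjusted p under 0.05, where 0.0067% of all genes were called. DESeq2 also called 0 members, and limma tested 0 of them. The difference of the label effect between palate and tongue was called for 0 of 4 members (edgeR, 0 with unadjusted p under 0.05), and for 0% of all genes. DESeq2 called 0 members too, and limma again tested 0 of them.

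Across tissues the basal layers ordered differently by gene. Mitf was highest in back skin: its deposited level was 52.7 ± 51.1 TPM in the back bulge (SD), 15.4 ± 2.16 in back spinous nLRC, 11.5 ± 2.32 in back basal LRC, 9.88 ± 2.71 in back granular, 9.87 ± 1.94 in back basal nLRC, 8.27 ± 1.86 in tail bulge, 5.72 ± 0.857 in back spinous LRC, 2.89 ± 0.977 in tail basal nLRC, 1.92 ± 0.738 in tail basal LRC, 1.01 ± 0.856 in palate LRC, 0.305 ± 0.177 in palate nLRC, 0.30 ± 0.0707 in tongue nLRC and 0.21 ± 0.0141 in tongue LRC libraries. Neighbours in this order from back basal LRC to tail bulge, and from palate nLRC to tongue nLRC, did not differ beyond their spread. Tongue nLRC (0.25 to 0.35 TPM) and tongue LRC (0.20 to 0.22 TPM) did not overlap, with 2 libraries each. Kit went another way: after the back bulge, at 8.13 ± 8.55 TPM, and spinous nLRC, at 1.40 ± 0.82, came palate LRC at 0.925 ± 0.205, granular at 0.89 ± 0.56, tongue LRC at 0.72 ± 0.354, tongue nLRC at 0.53 ± 0.113 and palate nLRC at 0.34 ± 0.325, above the basal groups of back and tail skin at 0.22 or less.

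Tested over the 20 basal libraries, Mitf was lower in tail than in back skin (39.2 ± 8.93 and 83.83 ± 10.95 CPM, SD, n = 6 each), with a log2 fold change of -1.10 ± 0.20 (edgeR, adjusted p = 1.82e-04), and Pmel was lower by this test too (-0.64 ± 0.26, adjusted p = 0.0446), a call lost under median-of-ratios scaling (adjusted p = 0.0641), DESeq2 (0.0608, which called Kit instead), no low-count filter (0.055) and a fit of only the groups compared (0.0568), and in 8 of 13 fits with a library left out (adjusted p up to 0.169). These were 2 of 6 members tested, where 27.2% of all genes were called lower and 58.3% in either direction. Tables of back and of the other tissues list different gene sets, with 47436 names in both, and tissue and table cannot be told apart in this comparison.

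Palate and tongue were each set against the same 6 tail basal libraries. Kit was higher in the palate, at 3.23 ± 1.76 CPM against 0.968 ± 0.706 CPM in tail (log2 fold change 1.69 ± 0.54, edgeR, adjusted p = 0.0262), and in the tongue, at 3.73 ± 0.849 CPM (1.99 ± 0.53, adjusted p = 0.00919). Mitf was lower in the palate, at 9.54 ± 5.81 CPM against 39.2 ± 8.93 CPM in tail (-2.21 ± 0.26, adjusted p = 4.36e-06), and in the tongue, at 3.645 ± 1.498 CPM (-3.42 ± 0.28, adjusted p = 5.54e-08). Kit and Mitf thus moved in opposite directions. Tyrp1 had 0 reads in the 4 palate libraries and 41 in the 6 tail libraries, at least 9.72-fold lower (adjusted p = 0.0125), and 1 read in the 4 tongue libraries, a ratio to tail of 0.0355 (exact 95% interval 0.000877 to 0.209, counting error only; adjusted p = 0.023). Tyrp1 passed the filter on low counts in this fit only through the tail libraries, so its calls here are descriptions. Dct had 15 reads in palate and 136 in tail libraries (-2.81 ± 1.01, edgeR, adjusted p = 0.0479). The calls of Dct and Kit in the palate depended on single libraries: with a library left out, that of Dct was lost in 8 of 10 fits (log2 fold change -5.49 to -2.35, adjusted p up to 0.158; without palate LRC 1 it stood at -5.15 and without palate nLRC 1 at -5.49, both called) and that of Kit in 5 of 10 (without tail LRC 3, tail nLRC 3, palate LRC 1, palate nLRC 1 or palate LRC 2; 1.16 without palate nLRC 1, adjusted p = 0.196). The call of Tyrp1 in the tongue was lost in 4 of 11 such fits (without tail LRC 1, tongue LRC 1, tongue LRC 2 or tongue nLRC 2; adjusted p up to 0.0967).

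In the palate 1 of 6 tested members was called higher, where 13.8% of all genes were, and 3 lower, where 13.1% were (26.9% in either direction). In the tongue 1 was called higher, where 13.3% of all genes were, and 2 lower, where 15.3% were (28.6% in either direction). Both counts of lower members include Tyrp1, which passed the filter only through the tail libraries, so these counts are descriptions. Limma on TPM, where Kit was too low to test, called 2 in the palate (Dct and Mitf) and 1 in the tongue (Mitf). Leaving out tail LRC 3, tail nLRC 3 or palate LRC 2 brought the palate count to 2. Between tongue and palate 0 of 4 were called (edgeR, 2 with unadjusted p under 0.05; DESeq2 called Mitf), where 9.62% of all genes were; Mitf had an adjusted p of 0.082, and Ednrb had 5 reads in tongue and 42 in palate libraries (adjusted p = 0.101). Mc1r had 0 reads in all 8 oral libraries.

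**Figure D5:**
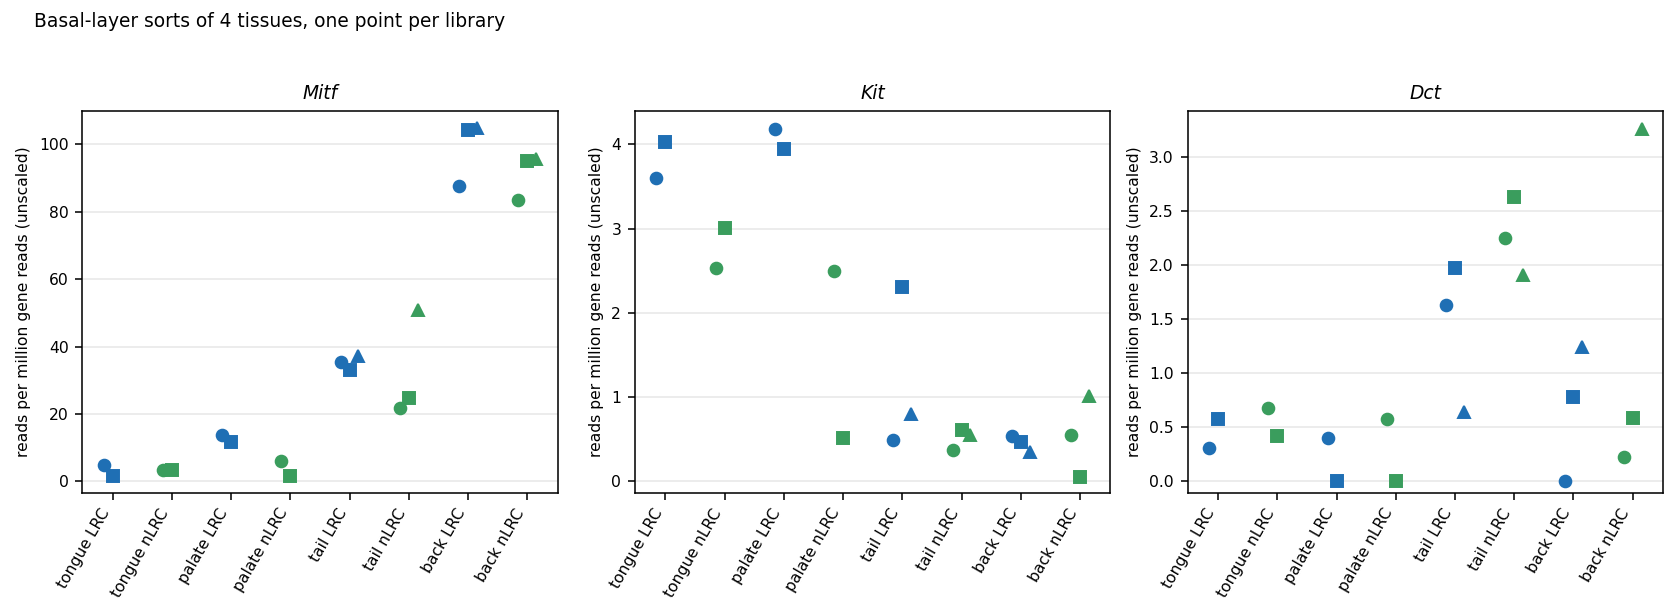
Unscaled CPM of Mitf, Kit and Dct in each basal layer library of tongue, palate, tail and back; circles, squares and triangles are replicates 1, 2 and 3, blue marks LRC and green nLRC. Mitf is highest in back and lowest in tongue libraries, while Kit is higher in most oral than in tail libraries.

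Across the 18 back libraries, the likeness among the members was highest for Tyrp1, Dct and Kit and lowest for pairs with Mc1r. On the log2(CPM + 0.5) scale, the 4 highest of 45 pairs had a Pearson's r of 0.944 between Tyrp1 and Dct, 0.94 between Kit and Tyrp1, 0.935 between Kit and Dct and 0.919 between Mitf and Tyr. The lowest pairs were Mc1r with Mitf (-0.00856), Tyr (-0.0024), Pmel (0.201) and Dct (0.276), and the lowest without Mc1r was Pmel with Mlana (0.52). These values describe libraries that share 2 high bulge sorts. Among 13952 genes, the gene most like Tyrp1 was Ptgds (r = 0.966, and 0.915 without bulge 1 and 3), that most like Dct was Zeb2 (0.944, then 0.812), and that most like Kit was C9 (0.947, then 0.832). Sox10 was most like Ctgf (0.953, then 0.909), Mitf most like Lgr4 (0.921, then 0.71), Ednrb most like Abca8a (0.941, then 0.639) and Tyr most like Dct (0.918). In this search Tyr with Mitf stood at 0.916, slightly off the value of that pair above, as both sets of values were computed separately. Mlana was most like Cck (0.86) and Pmel most like Zfp862-ps (0.848). In the 17 tail, palate and tongue libraries, over 13831 genes, Mitf was most like Tmem241 (0.969), Dct most like Clcn7 (0.932), Kit most like Klf12 (0.915) and Pmel most like Rap1a (0.864); the other 6 members had too few reads there for this comparison.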

How the data were processed

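RNA of sorted cells was measured in 35 libraries, made per the labels' protocols with a stranded total RNA kit for low input. The authors deposited 1 table per library with counts (total gene reads, per the file headers), TPM and RPKM. The genome build is mm10 per the submitters' processing notes; the aligner, the counting program and whether it used strand: not given in the sources used here. The deposited counts were tested with edgeR 4.0.16 in R 4.3.3 (TMM scaling, filterByExpr with a minimum count of 10, quasi-likelihood test, Benjamini-Hochberg adjustment over all genes tested, threshold 0.05) in 16 comparisons, each fitted on all libraries of its tissue or, between tissues, on the 20 basal libraries over names in both kinds of table. The deposited TPM values gave levels and an alternative test with limma 3.58.1 on log2(TPM + 1); the deposited RPKM values were not used. DESeq2 1.42.0, other scaling, filter and sample choices, a replicate block and leaving out each library were alternatives. Same-numbered LRC and nLRC libraries of a layer deviated together (r of 0.163 to 0.585 in back and tail), so numbers were read as pairing them there. The main fits used group means only and did not model this pairing, which the replicate block did. Intervals and floors of 3 reads cover counting error only. Counts of members whose libraries did or did not overlap are descriptions, as the share over all genes is not given. Lists were named in full for genes past the test, at most 6 per list, beside the 10 members and their ligands. The members and lists were chosen with earlier results of these data known. The script was tested on simulated counts. No 2 libraries agreed within sampling noise.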

Additional observations from a re-analysis of the deposited data

Results flagged for a closer look

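The label contrast of 3 members ran in opposite directions in different sorts, in every library by total gene reads. These differences were not tested. The 3 members were picked by this separation of small groups, and the share of all genes so separated is not given, so the count is a description. By edgeR 0% of all genes were called by label in the palate and 0.0067% in the tongue. Kit was lower in LRC than in nLRC libraries of the back spinous layer by an unscaled difference of -2.4 CPM (means 0.107 and 2.51), but higher in LRC libraries of the palate, by 2.57 CPM (4.07 and 1.5), and of the tongue, by 1.05 CPM (3.82 and 2.77). Mitf differed by -64.7 CPM in the spinous layer (62.7 in LRC and 127 in nLRC) and by 8.99 CPM in the palate (12.7 in LRC and 3.74 in nLRC). Ednrb differed by -0.633 CPM in the spinous layer (0.129 in LRC and 0.762 in nLRC) and by 0.662 CPM in the palate (1.08 in LRC and 0.416 in nLRC). In TPM the spinous groups stayed apart for all 3 members, and the palate groups for Kit. The palate groups overlapped in TPM for Mitf (0.40 to 1.61 in LRC, 0.18 to 0.43 in nLRC). They overlapped too for Ednrb (0 to 0.21 in LRC, 0.07 in nLRC), as did the tongue groups for Kit. The groups hold 3 or 2 libraries each, and layer and tissue both differ between these sorts.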

How the results depend on the processing

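Of 297 recomputed values of the 20 called member results, 256 kept their side of the threshold, 41 lost it and 0 reversed. Of the results, 11 were called under every alternative in which the gene was tested. An alternative whose filter removed the gene was not counted. This was so for Ednrb in the back bulge, Kit in the tongue and Tyrp1 in the palate, which are among the 11. In spinous LRC against nLRC libraries 1 member was called, but 3 with no low-count filter, 2 with DESeq2, 2 with the replicate block, 5 with only the groups compared and 0 with limma, and 1 to 4 with a library left out. The replicate block also called 1 in spinous against basal and 2 in granular against basal, where the fit without it called 0; it changed no other count of members past 1.5 times. DESeq2 called 1 in the label effect between layers, 1 in spinous against basal, 1 in granular against basal and 1 in tongue against palate. With no filter 1 was called in granular against basal, 1 in palate LRC, 1 in tongue against palate and 1 in tail against back. Only the groups compared gave 1 in the label effect between layers and 5 of 6 tested in the back bulge. That setting gave 1 in tail against back, where median-of-ratios scaling also gave 1. Limma gave 5 of 7 tested in the back bulge, 2 of 3 tested in palate against tail and 1 of 3 tested in tongue against tail. With a library left out the counts ran from 5 to 9 in the back bulge, 0 to 2 in granular against basal, 0 to 2 in palate LRC, 0 to 1 in tongue against palate, 1 to 3 in tail against back and 2 to 4 in palate against tail. The cause of these changes was not tested. Counts over all genes ranged over the settings from 1065 to 4476 in spinous LRC (2571 in the fit reported), 1928 to 5643 in the back bulge (4353), 0 to 219 in back basal LRC (39), 0 to 1106 in the effect between layers (65), 599 to 2736 in spinous (1504) and 1722 to 4838 in granular against basal (3315), 342 to 2128 in tail LRC (690), 0 to 1601 in palate LRC (0), 0 to 236 in tongue LRC (1), 0 to 488 in the effect between palate and tongue (0), 588 to 3406 in tongue against palate (1436), and 345 to 1182 in the effect between tail and back (463). Outside the back bulge Mlana and Ednrb had at most 17 reads in a library and Mc1r at most 11, which limits what could be detected for these genes. A member that was not called is not shown to be unchanged.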

Other observations

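Melanosome genes outside the 10 members changed in both directions between tail and back basal libraries. Of 25 tested, 9 were called higher in tail and 7 lower by edgeR, where 58.3% of all genes were called in either direction; the median log2 fold change was -0.01 over the list and 0.07 over all genes. Slc24a4 (30 to 90 reads in tail, 0 to 11 in back; log2 fold change 5.06 ± 0.55), Gpnmb (4.34 ± 0.45) and Myo5a (1.95 ± 0.14) were higher. So were the transporter genes Slc24a5 (0 to 11 reads in tail, 0 or 1 in back; 5.28 ± 1.07) and Oca2 (5 to 60 in tail, 0 to 5 in back; 3.27 ± 0.69), which were named after their values were seen. Rab27a was lower (132 to 274 reads in tail, 1297 to 2061 in back; -2.14 ± 0.16). Kitl, the KIT ligand, had 265 to 373 reads in tail and 14 to 81 in back basal libraries (3.82 ± 0.24), while Edn1 (-1.71 ± 0.35), Wnt3a (-1.61 ± 0.24) and Bmp4 (-3.29 ± 0.22) were lower in tail. Tissue and kind of table cannot be told apart in these values.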
